A study of Mus musculus with 4 samples.

Results

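Among the macrophages of the mouse aorta after angiotensin II infusion, 134 cells of 1 single-cell library had no transcript of Lyve1 and none of Ccr2, the genes by which resident and monocyte-derived aortic macrophages are usually told apart. They were 134 of 1778 macrophages of that library (7.54%, exact Clopper-Pearson 95% interval 6.35 to 8.86) and 1.28% of its 10471 kept cells. The cells were selected on their measured counts, in steps: at least 500 detected genes and at most 10% of UMIs (unique molecular identifiers, captured transcripts) from mitochondrial genes. Then came at least 10 UMIs summed over C1qa, C1qb, Lyz2, Csf1r and Fcer1g, fewer than 5 of Myh11, none of Pdgfra and none of Pecam1, and last no UMI of Lyve1 or Ccr2. They are called double-negative macrophages here. The library's other 1644 macrophages had Lyve1 alone (1179 cells, called Lyve1-positive), Ccr2 alone (297 cells, Ccr2-positive) or both (168 cells, double-positive). Smooth muscle cells, 6726 in number, had at least 5 UMIs of Myh11 and none of Ptprc. Because the groups were cut from the same counts that are compared, the differences below are descriptions of these cells and were not tested.

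The study asked how aortic cells of second heart field origin and of other origins differ in their response to angiotensin II, a peptide hormone that raises blood pressure. The male mice were of the strain Mef2c-mTmG, which joins Mef2c, a gene of the second heart field, with a membrane reporter that changes colour in cells with Cre activity. Living single cells of the digested ascending aorta were sorted by that lineage label and made into 10x Genomics 3' v3 libraries. The library described here is the CNC sort after 3 days of AngII infusion, and the SHF sorts after 3 days of AngII and at baseline are set beside it at the end. The series also lists a CNC sample at baseline, which is not used here, so no effect of AngII on these cells can be read from these values. The labels do not spell out CNC, and they do not give the driver of Cre in full, the number of mice in a library, their age or the colour sorted. Each lineage and condition has 1 library, so nothing below has a replicate check, and every interval is a 95% interval of counting error alone.

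Macrophages take up dead cells, lipid and iron, and they signal to their neighbours with cytokines and chemokines. In arteries, Lyve1-expressing macrophages lie mainly in the adventitia, renew themselves locally and express scavenger receptors such as Cd163 and Mrc1, whereas Ccr2 is the chemokine receptor by which monocytes leave the marrow and enter tissue. Macrophages that lack both have been described in several tissues, often with MHC class II molecules, which present peptides to helper T cells.

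As a group, though not in every cell, the double-negative cells carried the macrophage label by genes the gate did not use. Cd68, a lysosomal glycoprotein of macrophages, was found in 124 of 134 cells and stood at 679 (632 to 729) CPM (counts per 1000000, the gene's UMIs summed over the cells of a group and scaled to a common total; 95% interval in brackets), against 1229 in Lyve1-positive, 422 in Ccr2-positive and 7.17 in smooth muscle cells. Adgre1, which encodes F4/80, stood at 344 (311 to 379.7), beside 337, 233 and 2.28. Of the gate genes, which had to be present, C1qa was found in 130 cells and Csf1r in 119. Over the 15 genes of a macrophage identity list that the gate left out, the median log2 ratio over the other macrophages was -0.07.

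Markers of other cell types were counted in the same way. Summed markers of T or NK cells, red cells and mesothelium had 0 UMIs in the double-negative cells, which allows at most 2.63 CPM. Neutrophil markers had 11 UMIs with S100a8, S100a9 and Ly6g at 0, and endothelial markers had 9. B cell markers summed to 67.6 CPM, 65.8 of it from Ighm with Cd79a at 0, and to 59.3 in Lyve1-positive and 61.9 in Ccr2-positive cells. Dendritic cell markers summed to 56.2 CPM, with 65.6% of them in 1 cell, and mast cell markers to 131, with 85.2% in 1 cell. Smooth muscle markers other than Myh11 summed to 876 CPM against 524 in the other macrophages and 67442 in smooth muscle cells. Fibroblast markers other than Pdgfra summed to 1015 CPM against 330.5 in the other macrophages, and 32.2% of them came from 1 cell. Smooth muscle cells had 4234 CPM of the fibroblast markers, with at least 3 UMIs in 6714 of 6726 cells. These markers are therefore not particular to fibroblasts in this library. Scrublet, a doublet caller, marked 4 of the 134 cells (2.99%) and 13 of the other 1644 macrophages, which were kept. The part of other cells' RNA in the values below was not tested, except where values without such cells are given.

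A zero in a shallow cell says less than a zero in a deep one, and the double-negative cells were shallower. Their median was 7949 UMIs and 2296.5 detected genes per cell, beside medians of 11733 UMIs in Lyve1-positive, 9562 in Ccr2-positive, 11752.5 in double-positive and 13613.5 in smooth muscle cells. With the macrophages ordered by depth and cut into 4 parts, 16.9% met the rule in the shallowest (13.5 to 20.7), and in the deeper parts the shares were 6.76% (4.6 to 9.51), 3.15% (1.73 to 5.23) and 3.37% (1.90 to 5.50). When Lyve1-positive cells were thinned at random to 5000 UMIs, 45 of 1150 (3.91%) lost every Lyve1 UMI, and 21 of 273 Ccr2-positive cells (7.69%) lost every Ccr2 UMI. At 2000 UMIs the same losses were 14.4% and 36.1%. Of the 134 double-negative cells, 112 had at least 5000 UMIs. When each macrophage was thinned to 2000 UMIs before the rule was read, 430 cells met it, 126 of them among the 134. How many of the 134 express either gene below detection was not tested.

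**Figure D1:**
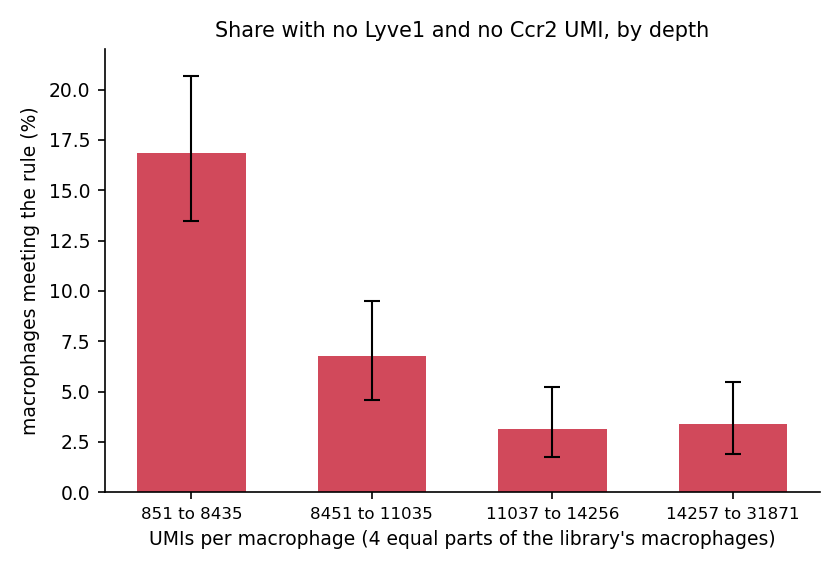
Share of macrophages of the CNC AngII library with no UMI of Lyve1 and none of Ccr2 (vertical axis, percent) in 4 parts of the macrophages by UMIs per cell (horizontal axis). Bars are shares and error bars exact 95% binomial intervals; the share is 16.9% in the shallowest part and 3.15% to 6.76% in the others.

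Cells just inside and outside the thresholds were looked at once. The 89 macrophages with exactly 1 UMI of Lyve1 or Ccr2 had 525 CPM of Folr2, 2402 of Cd74 and 187 of Cx3cr1, beside 447, 1989.9 and 204 inside the rule. At the gate, 13 members had a sum of 10 to 49 UMIs, with Adgre1 in 2 of 13 and Cd74 at 15354 CPM. The other 121 had 50 or more, with Adgre1 in 109 and Cd74 at 1461. Cd68 was found in 7 of the 13 and C1qa in 10, so the macrophage label does not hold for each of them. Their Il1b level was 4496 CPM, against 654 in the 121, and their Acta2 level 2375 against 345. The 10 cells with a sum of 5 to 9 that met the rest of the rule had Adgre1 in none. The 17 cells left out only because Myh11 reached 5 UMIs had Acta2 at 19039.8 CPM, against 422 in the members.

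Against all other macrophages of the library, the double-negative cells had lower levels of resident macrophage genes and higher levels of inflammatory cytokine and chemokine genes. A gene was called where its log2 ratio, on the log2(CPM + 1) scale, was at least 1 or at most -1, among genes with a mean of at least 10 CPM. Of 7274 genes, 219 (3.01%) were called higher and 148 (2.03%) lower, and the median log2 ratio over all of them was -0.04. Of the tissue-resident list, 15 of 22 genes were called lower and 0 higher, with a median of -1.30. Of the chemokine list, 9 of 16 genes were called higher and 1 lower (median 1.05), and of the inflammatory cytokine list 5 of 14 were higher and 0 lower (median 0.88). The chemokine list holds Ccl17 and Ccl22, each with all its double-negative UMIs in 1 cell, so that count can rest in part on single cells. The other macrophages are a mixture in which Lyve1-positive cells are 1179 of 1644. Lyve1-positive and Ccr2-positive cells, but not double-positive cells, are therefore also set beside the double-negative cells in separate ratios. These comparisons share the double-negative cells. Of the 15 genes named as highest over the other macrophages, 9 had at least 20% of their double-negative UMIs in 1 cell, 14 kept their direction in each of the 18 alternative settings run (Timp1 did not) and 10 stayed past the fold. With the top cell of each gene left out of each group, 114 genes were called higher and 220 lower.

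**Figure D2:**
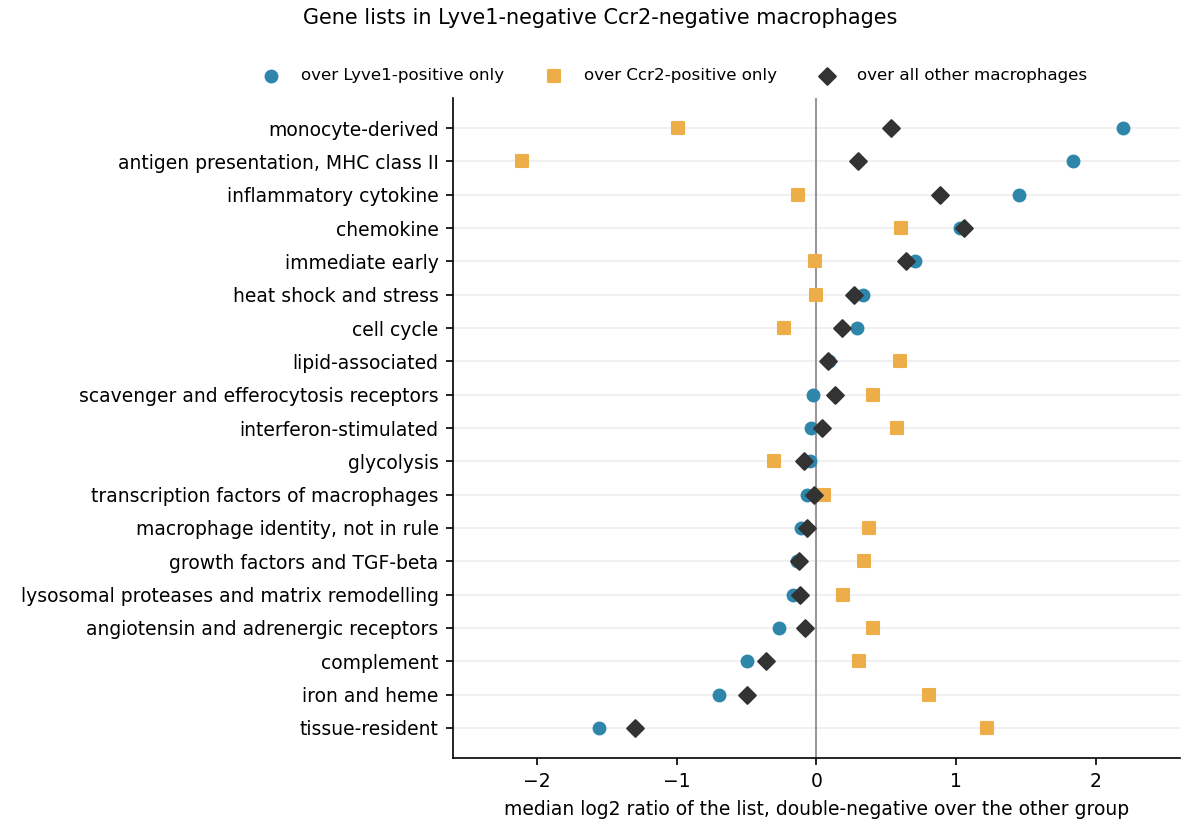
Median log2 ratio of each of 19 gene lists (rows) in double-negative macrophages over Lyve1-positive cells (circles), Ccr2-positive cells (squares) and all other macrophages (diamonds). The tissue-resident list lies at -1.56 over Lyve1-positive and at 1.22 over Ccr2-positive cells, and the MHC class II list at 1.84 and -2.11.

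The resident genes took a middle place between Lyve1-positive and Ccr2-positive cells. Against Lyve1-positive cells, where 4.08% of all 7281 genes were called higher and 3.23% lower, 17 of 22 resident genes were lower and 0 higher. Against Ccr2-positive cells, where 3.94% of 7136 genes were called higher and 1.95% lower, 12 of 19 were higher and 1 lower. Folr2, a folate receptor of resident macrophages, stood at 447 (409 to 488) CPM in double-negative cells, 1331 (1312 to 1349.5) in Lyve1-positive and 227 (210.2 to 245) in Ccr2-positive cells. Single double-negative cells had 0 to 18 UMIs of it (median 3), and Lyve1-positive cells had a median of 15. The intervals of the 3 groups do not overlap, and the double-negative level lies between the others. Cd163, the receptor for haptoglobin-bound haemoglobin, had the same order at 168 (145 to 194), 641 and 55. Fcna, a ficolin that recognises microbial sugars, stood at 122 (103 to 144), 961 and 26.1. Gas6, which bridges dying cells to receptors on phagocytes, stood at 267 (238 to 298), 726 and 91.4.

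Other resident genes stood at different distances from the Ccr2-positive level. Timd4, a phosphatidylserine receptor of long-lived resident macrophages, was found in 6 of 134 double-negative cells with at most 2 UMIs, at 7.02 (3.03 to 13.8) CPM, in 521 of 1179 Lyve1-positive cells at 69.7 and in 3 of 297 Ccr2-positive cells at 1.03 (0.213 to 3.01). Mrc1, the mannose receptor, stood at 733 in double-negative, 639 in Ccr2-positive and 1651 in Lyve1-positive cells. F13a1, the A subunit of coagulation factor XIII, stood at 768, 628 and 1884. Pf4, a chemokine of platelets and resident macrophages, spanned less: 2667 in double-negative, 2103 in Ccr2-positive and 3201 in Lyve1-positive cells. The lowest ratios over all other macrophages under the naming rule were those of Saa3, an acute-phase protein (-3.34, interval -4.47 to -2.63), the lectin gene Cd209f (-3.08, interval -3.60 to -2.67), Fcna (-2.62, interval -2.88 to -2.39), the endothelin receptor gene Ednrb (-2.05, interval -2.33 to -1.81) and the complement receptor gene Vsig4 (-1.76, interval -2.07 to -1.49). Saa3 rested on few cells: 4 double-negative cells had it, and as a mean of per-cell shares its ratio was -1.27. All 15 genes named as lowest kept that direction in each of the 18 alternative settings run, and 4 stayed past the fold in each.

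Over Lyve1-positive cells, 4 of the 5 largest ratios under the naming rule were those of MHC class II genes. H2-Ab1, a class II beta chain, stood at 506 (466 to 549) CPM in double-negative cells and at 20.4 (18.1 to 22.8) in Lyve1-positive cells, a log2 ratio of 4.57, interval 4.43 to 4.84. Cd74, the invariant chain that guides class II molecules to the endosome, stood at 1989.9 (1909 to 2073) and 79.9 (75.4 to 84.7). Of the MHC class II list, 6 of 9 genes were called higher and 0 lower. Ccr2-positive cells had still more, with H2-Ab1 at 2470.4 (2414 to 2528) and Cd74 at 8592 (8485 to 8699), and 8 of 11 genes of the list were called lower in double-negative cells. After thinning each cell to 2000 UMIs, Cd74 was found in 25.4% (18.1 to 33.9) of double-negative cells, 9.96% of Lyve1-positive, 69.3% of Ccr2-positive and 0.907% of smooth muscle cells. Unthinned, these shares were 39.6%, 36.2%, 80.1% and 3.78%.

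The class II level was carried by few cells. Of the 134 double-negative cells, 68 had no UMI of H2-Aa, H2-Ab1, H2-Eb1 and Cd74 together, 44 had 1 to 9 and 22 had 10 or more. Those 22 cells held 97.4% of the UMIs of these genes. The 13 cells with a gate sum under 50 are part of this spread, as their Cd74 level above shows. Against all other macrophages Cd74 had a log2 ratio of 0.40, and 0.02 among cells of at least 5000 UMIs.

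Inflammatory cytokine genes were higher than in Lyve1-positive cells and, on the list median, near the Ccr2-positive level. Il1b, the precursor of interleukin-1 beta, stood at 800.2 (749 to 854) CPM in double-negative cells, 30.3 (27.6 to 33.3) in Lyve1-positive and 1641 (1594 to 1688) in Ccr2-positive cells. It was found in 42 of 134 double-negative cells, with up to 118 UMIs in 1 cell, so most cells had none. Tnf, tumour necrosis factor, had another order: 307 (276 to 341) in double-negative, 186 (171 to 202) in Ccr2-positive and 89.2 (84.4 to 94.2) in Lyve1-positive cells. Of these groups the Tnf level was highest in the double-negative cells, where 73 of 134 had a UMI, and over the alternative settings its log2 ratio over Ccr2-positive cells ran from 0.48 to 0.83. Thinned to 2000 UMIs, Tnf was found in 32.5% (24.5 to 41.5) of double-negative, 22% (17.4 to 27.1) of Ccr2-positive and 14.8% (12.8 to 17) of Lyve1-positive cells and in 0.134% of smooth muscle cells. Unthinned, these shares were 54.5%, 46.8%, 39.2% and 1.37%. For Tnf, the thinned intervals of double-negative and Ccr2-positive cells overlap. Nlrp3, the sensor of the inflammasome that activates interleukin-1 beta, stood at 125 (106 to 148), close to the 147 (134 to 162) of Ccr2-positive cells and above the 27.2 (24.6 to 30.0) of Lyve1-positive cells. Of the 14 list genes tested, 13 of 14 were called higher than in Lyve1-positive cells, and against Ccr2-positive cells 0 were called higher and 4 lower. Immediate early genes, which are also raised by tissue digestion, moved alongside: the list median was 0.71 over Lyve1-positive and -0.01 over Ccr2-positive cells, and its part in the cytokine levels was not tested.

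Several chemokine genes stood higher in the double-negative cells than in both other groups, by less over Ccr2-positive than over Lyve1-positive cells. Over Ccr2-positive cells 4 of 17 chemokine list genes were called higher and 0 lower (median 0.60), beside 3.94% of all genes called higher. Over Lyve1-positive cells 8 of 15 were higher and 1 lower (median 1.03). Ccl8, with a log2 ratio of 2.21 over Ccr2-positive cells, is among the 4, although Lyve1-positive cells had more of it. Genes with all their double-negative UMIs in 1 cell can also enter this count. It is therefore not a count of genes higher than in both groups. The log2 ratios of Ccl4 and Cxcl10 over Ccr2-positive cells, 0.91 and 0.85, stayed under the fold. Ccl4, which attracts lymphocytes and monocytes, stood at 1828 (1751 to 1909) CPM, with 976 (940.3 to 1012) in Ccr2-positive and 582 (570.1 to 595) in Lyve1-positive cells. Single double-negative cells had a median of 5 and at most 113 UMIs of it. Ccl3, its neighbour in the genome and in function, stood at 723 (674 to 774), 377 and 354. Cxcl16, a membrane-bound chemokine and scavenger receptor, stood at 373 (338 to 410.1), 245 and 117. Cxcl2, which attracts neutrophils, was the most abundant of them at 5242 (5110.2 to 5377), which overlaps the 5173 (5091 to 5256) of Ccr2-positive cells and exceeds the 2074 of Lyve1-positive cells. Cxcl10, an interferon-induced ligand of Cxcr3, stood at 463 (425 to 505), 256 and 101, but 36.2% of its double-negative UMIs came from 1 cell. Without the top cell of each group its log2 ratio over the other macrophages went from 1.91 to 1.33, and without cells with fibroblast markers to 0.51. Over Ccr2-positive cells its ratio turned from 0.85 to -0.48 without cells with fibroblast markers. Ccl17 had 252 UMIs and Ccl22 27, each of them in 1 double-negative cell. Ccl6 went the other way, at 1092 (1032 to 1155) against 3159 in Lyve1-positive and 1652 in Ccr2-positive cells, and Ccl8 lay between the groups at 1430.1, 2534 and 309.

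**Figure D3:**
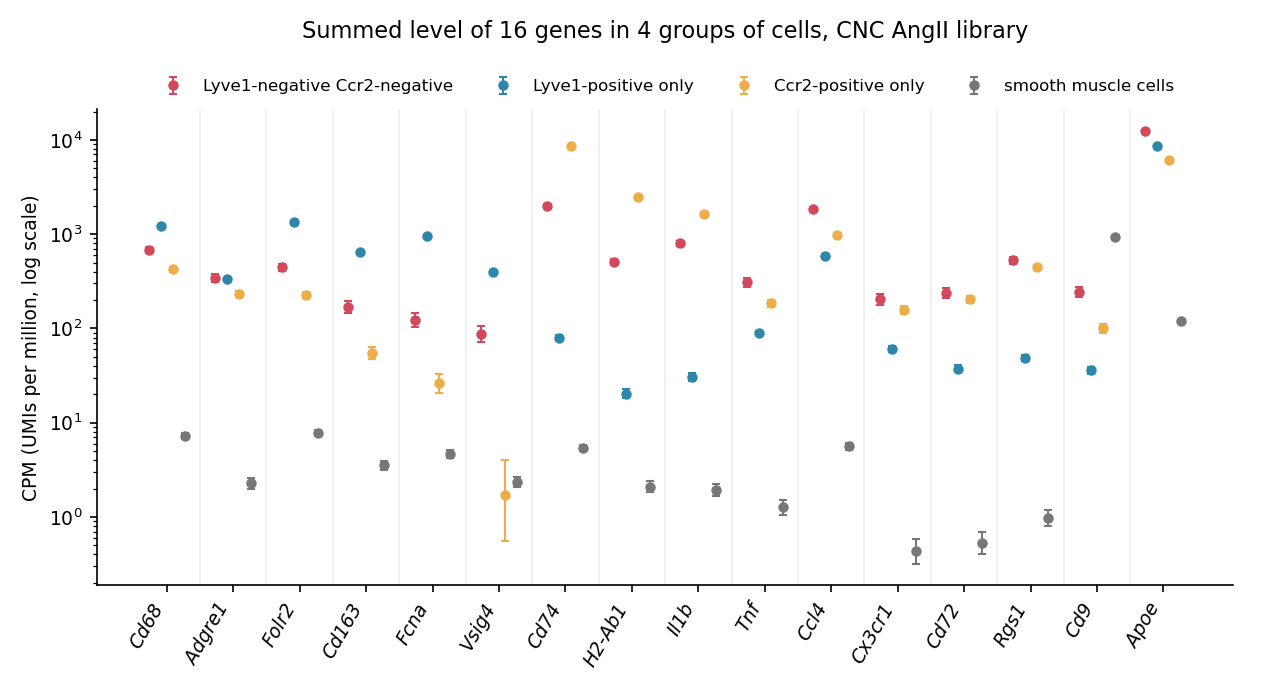
CPM (vertical axis, log scale) of 16 genes (horizontal axis), summed over the cells of 4 groups of the CNC AngII library; error bars are exact 95% Poisson intervals, which cover counting error only. Tnf, Ccl4, Cd9 and Apoe are highest among the 3 macrophage groups in double-negative cells, whereas the resident genes Folr2 to Vsig4 and the MHC class II genes lie between Lyve1-positive and Ccr2-positive cells.

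The sequence upstream of several inflammatory cytokine and chemokine genes holds an NF-kB-type motif. The letters GGGA, any 2 bases and TTCC were searched on both strands in the 250 bases before each gene's start, in RefSeq promoters of GRCm38.p6. They were found for 6 of the 27 inflammatory cytokine and chemokine genes with a promoter in the table (36 genes in the lists) and for 1.36% of all 27025 genes with one. The 6 genes are Il6, Nfkbia, Cxcl1, Cxcl2, Cxcl3 and Cxcl10. The promoters of Tnf, Il1b, Ccl3 and Nlrp3 held no match to these letters. Below are 3 of the 6, chosen for their level in these cells, written in the direction of transcription with each match in capitals. In the Cxcl2 promoter 2 matches on opposite strands overlap in the capitals. A match is a description of the letters and shows no binding. The lists were chosen with earlier results of these data known, and a link between the motif and the levels here was not tested.
Cxcl2, chr5:90903649-90903898, plus strand: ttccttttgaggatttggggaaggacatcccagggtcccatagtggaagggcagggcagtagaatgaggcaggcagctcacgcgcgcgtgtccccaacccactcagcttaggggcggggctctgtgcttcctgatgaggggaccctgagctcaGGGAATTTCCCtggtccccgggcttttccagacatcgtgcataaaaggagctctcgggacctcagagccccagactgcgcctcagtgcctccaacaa
Cxcl10, chr5:92348890-92349139, minus strand: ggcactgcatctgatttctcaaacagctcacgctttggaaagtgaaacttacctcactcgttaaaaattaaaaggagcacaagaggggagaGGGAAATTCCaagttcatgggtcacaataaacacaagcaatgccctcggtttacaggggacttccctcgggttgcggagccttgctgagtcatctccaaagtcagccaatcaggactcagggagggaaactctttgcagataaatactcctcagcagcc
Nfkbia, chr12:55492648-55492897, minus strand: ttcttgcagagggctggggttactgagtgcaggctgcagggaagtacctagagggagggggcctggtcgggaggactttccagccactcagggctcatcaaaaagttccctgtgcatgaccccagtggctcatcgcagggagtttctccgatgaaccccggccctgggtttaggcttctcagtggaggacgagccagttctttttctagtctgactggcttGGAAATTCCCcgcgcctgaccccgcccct
Nfkbia encodes the inhibitor that holds NF-kB in the cytoplasm and is itself induced by it. Its level was 1459.9 (1391 to 1532) CPM in double-negative, 1618 (1572 to 1665) in Ccr2-positive and 635 (623 to 648) in Lyve1-positive cells.

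A few genes stood higher in the double-negative cells than in both other groups, or level with Ccr2-positive cells and far above Lyve1-positive cells. Cx3cr1, the fractalkine receptor of patrolling monocytes and of many tissue macrophages, stood at 204 (179 to 232) CPM, with 158 (144 to 173) in Ccr2-positive and 60.7 (56.8 to 64.9) in Lyve1-positive cells. It was found in 74 of 134 cells, with a median of 1 and at most 15 UMIs. At 2000 UMIs per cell it was found in 30.2% (22.3 to 39) of double-negative, 22.6% (18 to 27.8) of Ccr2-positive and 10.0% (8.38 to 11.9) of Lyve1-positive cells, and in 0.0149% of smooth muscle cells. Unthinned, Cx3cr1 was found in 55.2%, 50.2%, 25.6% and 0.416% of them. The thinned intervals of double-negative and Ccr2-positive cells overlap. With the rule read after thinning, the log2 ratio of Cx3cr1 over Ccr2-positive cells was -0.09 instead of 0.37, so the order of these groups turned (without cells with fibroblast markers it was near 0), while over Lyve1-positive cells it was 1.55 instead of 1.73.

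Cd9, a tetraspanin, was at 245 (217 to 275) against 100.4 (89.2 to 113) and 35.9 (32.9 to 39.1). Smooth muscle cells had 922 CPM of it, and 1 double-negative cell held 20.8% of its UMIs. Leaving out the top cell of each group gave a log2 ratio over the other macrophages of 2.11 instead of 2.39. Without cells with fibroblast markers, its ratio over Ccr2-positive cells was 0.37 instead of 1.28. Apoe, the lipid carrier apolipoprotein E, stood at 12299 (12096 to 12504), 8644 (8597 to 8692) in Lyve1-positive and 6190.0 (6099.9 to 6281) in Ccr2-positive cells.

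Cd72, an inhibitory receptor with a C-type lectin fold, stood at 236 (209 to 266) in double-negative and 204 (188 to 221) in Ccr2-positive cells, whose intervals overlap, and at 37.5 in Lyve1-positive cells. Its ratio over Ccr2-positive cells also turned with the rule read after thinning, from 0.21 to -0.16. Rgs1, which dampens signalling of G-protein-coupled receptors, stood at 527 (486 to 571), 444 (421 to 469) and 48.2, and its ratio over Ccr2-positive cells turned in the same way, from 0.25 to -0.38. Spp1, the secreted matrix protein osteopontin, stood at 1079 (1019.7 to 1141) in double-negative, 1249 (1209 to 1290.4) in Ccr2-positive and 98.9 in Lyve1-positive cells. It was found in 63 of the 134 cells, and the single highest cell had 139 UMIs. Trem2, the lipid-sensing receptor, stood at 766 in double-negative, 568 in Ccr2-positive and 789 in Lyve1-positive cells. Mmp12, macrophage elastase, reached 126 (107 to 149) CPM, against 5.07 in the other macrophages, but in 11 cells, 1 of which held 49.3% of the UMIs. Over Ccr2-positive cells its log2 ratio was 2.49, and -0.56 without cells with fibroblast markers. The lipid-associated list as a whole had 5 of 19 genes called higher and 0 lower over the other macrophages, with a median of 0.08. Other genes named as highest over all other macrophages were Gngt2, a G-protein gamma subunit (1.86, interval 1.58 to 2.23), the growth factor gene Areg (1.88, interval 1.64 to 2.17), Creb5 (1.62, interval 1.32 to 1.99) and AA467197 (2.04, interval 1.76 to 2.41). Areg and AA467197 were found in 16 and 22 of the 134 cells.

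Matrix genes were also higher, and each of those named here had at least 20% of its double-negative UMIs in 1 cell. Unthinned, they were found in 12.7% (Serpinh1) to 44.0% (Sparc) of double-negative cells. Mfap5, a microfibril protein, had a log2 ratio over the other macrophages of 3.47, interval 3.29 to 3.79, with 64.9% of its double-negative UMIs in 1 cell. Col3a1, Sparc, Serpinh1 and Timp1 had ratios of 2.16, 2.10, 2.05 and 1.71. With the top cell of each group left out, Mfap5 had 2.21, Col3a1 1.42, Sparc 1.42, Serpinh1 1.78 and Timp1 0.85. Without the 65 double-negative cells and the other macrophages that had at least 3 UMIs of fibroblast markers, the ratios of Mfap5, Col3a1, Sparc, Serpinh1 and Timp1 were 1.25, 0.30, 0.31, 0.40 and -0.34. Those cells left aside, Cx3cr1 had 1.12, Tnf 1.44, Rgs1 2.11 and Folr2 -1.11.

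Against Ccr2-positive cells, the double-negative cells were higher in resident genes and lower in monocyte-linked and class II genes. Of the monocyte-derived list 0 genes were called higher and 7 of 17 lower, with a median of -0.99 beside 1.22 for the tissue-resident list and 0.04 over all genes tested. Against Lyve1-positive cells 9 of 15 genes of the monocyte-derived list were higher and 0 lower. Single smooth muscle cells had a median of 16 UMIs of this list after thinning, beside 5 in double-negative and 14 in Ccr2-positive cells. The highest ratios under the naming rule were those of Hpgd, which inactivates prostaglandins (3.37, interval 3.00 to 3.90), the complement gene C4b (3.19, interval 2.77 to 3.82), Ccl24 (3.15, interval 2.71 to 3.82) and the growth factor gene Igf1 (2.44, interval 2.13 to 2.83). Igf1 stood at 193 (168 to 220.3) CPM against 34.7 (28.3 to 42.2) in Ccr2-positive and 280.4 (272 to 289) in Lyve1-positive cells. For Ccl24, 69.4% of the UMIs came from 1 cell, and without the top cell of each group the ratio was 1.68. The lowest were H2-Aa (-2.44, interval -2.58 to -2.31), the NF-kB inhibitor gene Tnip3 (-2.43, interval -2.93 to -2.02), the lectin gene Clec4b1 (-2.39, interval -3.19 to -1.80) and the leukotriene B4 receptor gene Ltb4r1 (-2.37, interval -3.05 to -1.84). Ly6c2, the marker of classical monocytes, was found in 2 double-negative and 10 Ccr2-positive cells. Of genes that handle iron and haem, 5 of 12 were called higher than in Ccr2-positive cells and 4 of 13 lower than in Lyve1-positive cells. Hmox1, haem oxygenase, stood at 987 (930.2 to 1046), 307 and 2185.

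Other lists are given by their counts. Of the cell cycle list 0 of 24 genes were called in either direction against any of the macrophage groups. Mki67 or Top2a was found in 47 of 134 double-negative cells (35.1%), 49.5% of Ccr2-positive and 38.8% of Lyve1-positive cells. After thinning to 2000 UMIs the shares were 25.4% (18.1 to 33.9), 34.5% (29.1 to 40.2) and 20.3% (18.1 to 22.8), with 2.05% in smooth muscle cells, and the double-negative interval overlaps both others. Of the interferon-stimulated list 0 of 16 genes were called over the other macrophages, 1 of 16 lower over Lyve1-positive and 1 of 15 higher over Ccr2-positive cells (median 0.58). Of the heat shock list 0 of 12 genes were called over the other macrophages or over Lyve1-positive cells, and 2 of 12 higher over Ccr2-positive cells. Of the transcription factor list, Id2 and Bhlhe40 were called higher over the other macrophages and none lower. Id2, an inhibitor of helix-loop-helix factors, stood at 269 (240.1 to 301) CPM, 259.9 in Ccr2-positive and 85.7 in Lyve1-positive cells, while Spi1, a factor that drives the myeloid lineage, stood at 504, 485 and 545. Of the growth factor list, 3 of 11 genes were called higher and 0 lower over the other macrophages, as over Lyve1-positive cells, and 4 of 12 higher and 2 lower over Ccr2-positive cells. Pdgfb, a platelet-derived growth factor chain, stood at 44.7 (33.3 to 58.8), 20.3 and 15.5, and the receptor gene Tgfbr1 at 62.3 (48.7 to 78.6), 33.7 and 26.8.

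Against smooth muscle cells, the main population of the library, 23.1% of 7619 genes were called higher and 19.8% lower. This split, 53.8% of calls higher, depended on scaling: with TMM factors, which shifted the median log2 ratio of these 7619 genes from 0.16 to -0.16, 40.8% of calls were higher. The highest genes under the naming rule were Cd74, Ccl4, Cd52, Il1b, Rgs1, Fcrls, Bcl2a1b, H2-Aa, Cd14 and Ctss. Cd52, a leukocyte surface glycoprotein, stood at 1015 (957 to 1075) against 2.67 (2.37 to 3.01) CPM, and Cd14, the lipopolysaccharide co-receptor, at 980.0 (923 to 1039) against 4.44 (4.04 to 4.87). Among the lowest were Pcdh7, Npy1r, Hspb7 and Sh3bgr, with 0 to 4 UMIs each over all double-negative cells. Npy1r, a neuropeptide Y receptor gene, had 0 UMIs in double-negative cells and 151 CPM in smooth muscle cells. The angiotensin receptor genes Agtr1a, Agtr1b and Agtr2 had 0 UMIs in the double-negative cells, which allows at most 2.63 CPM each, and Agtr1a stood at 1.43 in smooth muscle cells.

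The double-negative cells were not uniform. In cells thinned to 2000 UMIs (126 of the 134), the tissue-resident sum ranged from 0 to 61 UMIs with a median of 17, between the 9.5 of Ccr2-positive and the 39 of Lyve1-positive cells. Double-positive cells also lay between, with a median of 28.5, so a middle place is not particular to the double-negative cells. The middle quartiles of double-negative cells lay between 9 and 26.8, which overlaps the range from 3 to 17 of Ccr2-positive cells but not the range from 30 to 48 of Lyve1-positive cells. The inflammatory cytokine sum had a median of 6 UMIs (range 0 to 61), with 9 in Ccr2-positive, 2 in Lyve1-positive and 1 in smooth muscle cells. At least 5 class II UMIs were found in 15.1% of double-negative and 20.2% of double-positive cells. These shares were 57.8% in Ccr2-positive and 0.681% in Lyve1-positive cells.

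**Figure D4:**
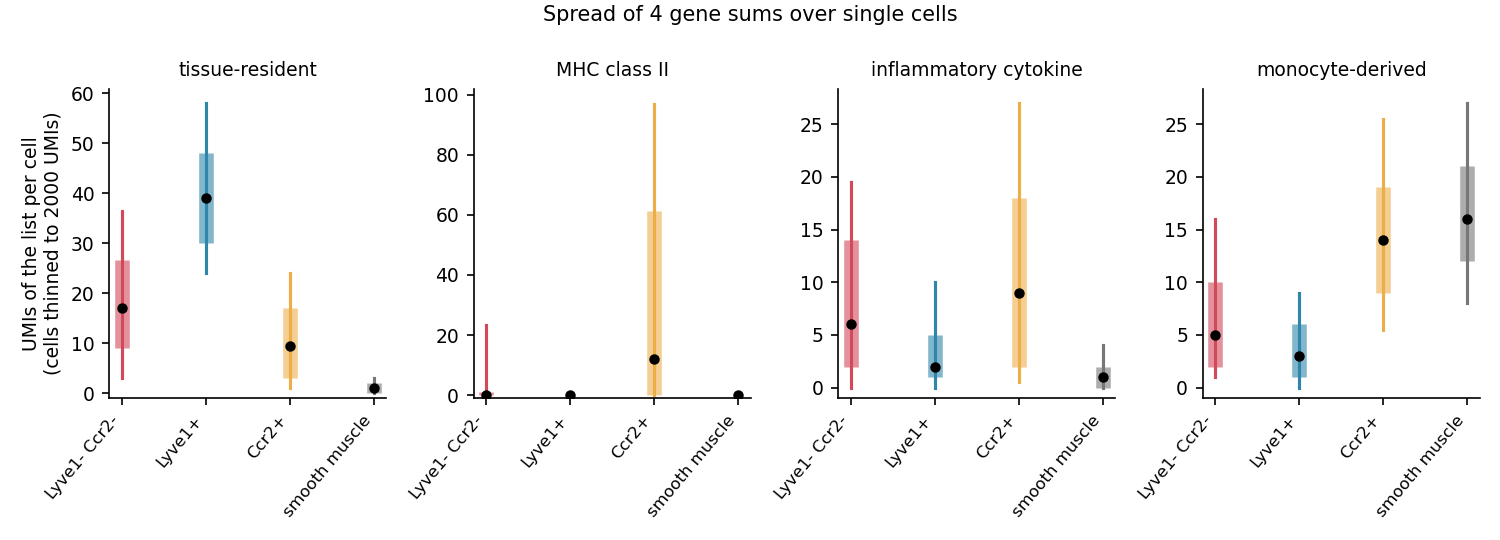
UMIs per cell of 4 gene sums (panels) in cells thinned to 2000 UMIs, for double-negative macrophages (Lyve1- Ccr2-), Lyve1-positive, Ccr2-positive and smooth muscle cells; dots are medians, thick bars the range between quartiles and thin lines the 10th to 90th percentiles. The tissue-resident median of double-negative cells is 17 UMIs, between 9.5 and 39, and their MHC class II median is 0.

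Within the 126 cells, the tissue-resident sum went down as the inflammatory cytokine sum (Spearman's rho -0.43), the class II sum (-0.41) and the monocyte-derived sum (-0.40) went up. The inflammatory cytokine and immediate early sums went up together (0.61), while the cytokine and class II sums were nearly unrelated (0.13). The lipid-associated sum went up with the tissue-resident sum (0.39) and down as the cell cycle sum went up (-0.46). These are some of 21 pairs of sums computed, and the cells share 1 library and a fixed total of UMIs. The 22 cells with 10 or more class II UMIs, a division made after the values were seen, had 216 (154 to 294) CPM of Folr2 and 1924 (1729 to 2135) of Il1b. The 68 cells with no class II UMI had 554 (492 to 622) and 445 (389 to 506). Spp1 was at 292 (219 to 381) in the former and 1574 (1468 to 1687) in the latter, and Cxcl10 at 227 (164 to 307) and 739 (667 to 818). Of the 22 cells, Il1b was found in 11, Adgre1 in 14 and C1qa in 19. How far the 13 cells with a gate sum of 10 to 49 carry these levels was not tested. Ccr7, a receptor of migrating dendritic cells, was found in 3 double-negative cells, and 1 cell held 95.5% of its UMIs.

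**Figure D5:**
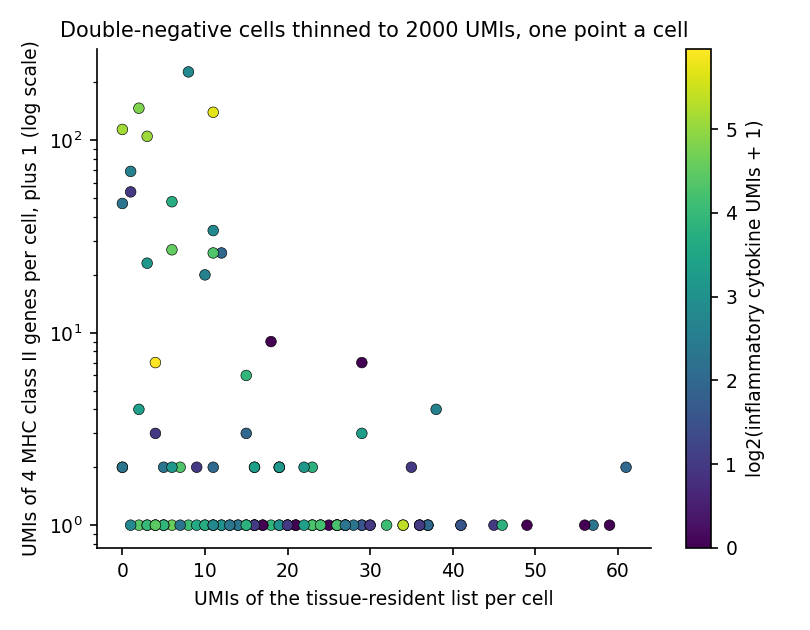
Each point is 1 double-negative cell thinned to 2000 UMIs, by its UMIs of the tissue-resident list (horizontal axis) and of 4 MHC class II genes plus 1 (vertical axis, log scale); colour is log2 of inflammatory cytokine UMIs plus 1. Of 126 cells, 86 have 0 class II UMIs and 19 have 5 or more, and most of the latter lie at low resident sums.

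In the SHF libraries the same rule found few cells. After 3 days of AngII it found 15 macrophages among 9490 kept cells (0.158%), 8 of them double-negative, 7 Ccr2-positive and 0 Lyve1-positive. At baseline it found 6 among 8579, of which 3 were double-negative, 2 Ccr2-positive and 1 Lyve1-positive. In the CNC AngII library macrophages were 17.0% of kept cells (16.3 to 17.7). The sort by lineage and the library cannot be told apart in these shares. In the 8 SHF AngII cells C1qa was found in 3 and Cd68 in 6, and Cd74 had 851 UMIs over 5 cells, so their macrophage label does not hold for every cell. In the 3 SHF baseline cells C1qa, Cd68 and Adgre1 were found in each, Cd74 had 427 UMIs and Folr2 had 0. The CNC AngII library shares 32 cell barcodes with SHF AngII and 34 with SHF baseline, and none of these is a double-negative cell.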

How the data were processed

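The deposited files hold raw UMI counts per gene and cell barcode, 1 table per library, with 32285 genes and no normalization by the authors that the values show. The submitters' processing notes name fastp, STAR 2.5, HTSeq 0.6.1 and the build mm10; their roles and the annotation are not given in the sources used here. Totals were 150954701 UMIs over 11098 barcodes in the CNC AngII library.

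Counts were summed over the cells of a group and divided by the group's total (CPM, counts per 1000000), and ratios were taken as log2(CPM + 1). Log2 ratios carry a 95% conditional binomial interval without that pseudocount, levels an exact Poisson interval and shares an exact Clopper-Pearson interval. All cover counting error only, and a count of 0 is given a limit of 3 counts. Genes of the selection rule were left out of calls. With 1 library per group no test was run. For shares of cells, each cell was thinned at random to 2000 UMIs and shallower cells were left out (8 double-negative cells). Doublets were marked with Scrublet in scanpy 1.11.5 (279 cells in the library) and kept. The code for ratios and intervals was tested on simulated data.

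The members and the 19 gene lists (320 genes, 1 of them absent from the file) were chosen with earlier results of these data known. Named genes were the 15 highest and 15 lowest ratios over the other macrophages, 8 and 8 over Lyve1-positive and over Ccr2-positive cells, and 10 and 5 over smooth muscle cells. They had a mean of at least 50 CPM and a UMI in at least 10% of cells of the higher group, and mitochondrial, ribosomal, rule and marker genes were left out. List and marker genes may also be named. Some genes that the rule or the lists name are not reported here. For each comparison 18 alternatives were run over cell filters, gates, scaling, pseudocount and gene minimum. Promoters are from RefSeq, GRCm38.p6.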

Additional observations from a re-analysis of the deposited data

How the results depend on the processing

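No paired analysis was possible because each lineage and condition has 1 library. Of the counts and shares computed under the alternatives, 123 stayed within 1.5 times (counts) or the counting interval (shares) of the values reported and 41 did not. Of list medians 1143 stayed within their interval, 220 moved and 1 reversed. Of single genes 1841 values stayed within their interval, 857 moved and 2 reversed, and of shares of cells with a UMI 6 stayed and 18 moved. The 2 reversed values were Timp1 over the other macrophages and Mmp12 over Ccr2-positive cells. Cx3cr1, Cd72, Rgs1, Cxcl10 and Axl over Ccr2-positive cells, among others, also changed sign in some setting and are not counted as reversed. The leaving out of each gene's top cell and of cells with at least 3 fibroblast-marker UMIs was chosen after seeing the data. The causes of the changes were not tested. Depth limits the reading of zeros: the double-negative cells were the shallowest macrophages, and a gene at 0 UMIs in all of them may stand at up to 2.63 CPM.

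With the rule read after thinning to 2000 UMIs, 430 cells met it (24.36% of macrophages). Then 89 genes were called higher and 24 lower over the other macrophages, 177 and 59 over Lyve1-positive cells, and 167 higher over Ccr2-positive cells, and the tissue-resident median over the other macrophages was -0.79. Without cells with fibroblast markers, 69 double-negative cells remained, and 270 genes were called lower over the other macrophages, 422 higher and 332 lower over Ccr2-positive cells. The tissue-resident median was then -1.04, and Timp1 over the other macrophages (-0.34) and Mmp12 over Ccr2-positive cells (-0.56) reversed. With the top cell of each gene left out, 114 genes were higher over the other macrophages and 186 over Ccr2-positive cells, and the MHC class II median over the latter was -2.33.

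With every cell thinned to 2000 UMIs, 409 genes were called higher and 471 lower over the other macrophages, 520 and 609 over Lyve1-positive cells and 692 and 500 over Ccr2-positive cells, and the inflammatory cytokine median over the other macrophages was 0.64. A pseudocount of 10 gave 121 and 54, 193 and 96, and 138 and 62 in the same order. A gene minimum of 50 CPM gave 65 and 40, 95 and 70, and 64 and 35, with 548 and 548 over smooth muscle cells, where the monocyte-derived list median reversed to -1.005. No gene minimum gave 762 and 703, 954 and 844, 1178 and 778, and 3029 and 3045 over smooth muscle cells, and an MHC class II median over Lyve1-positive cells of 1.58. Means of per-cell shares gave a tissue-resident median over the other macrophages of -1.01. Over Ccr2-positive cells the MHC class II median was -2.51 in cells of at least 5000 UMIs and -2.19 with TMM scaling.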

Other observations

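Several lists not described above also had members past the fold in the double-negative cells. Of complement genes, 1 of 11 tested genes were called higher and 2 lower against Lyve1-positive cells, and 2 of 11 higher and 1 lower against Ccr2-positive cells. C3, the central complement protein, stood at 16.7 (10.0 to 26) CPM in double-negative, 30.2 in Ccr2-positive and 3.75 in Lyve1-positive cells. Of scavenger and efferocytosis receptors, 4 of 15 were called higher and 0 lower than in Ccr2-positive cells, 3 of 16 higher and 3 lower than in Lyve1-positive cells, and 2 higher and 2 lower than in all other macrophages. Axl, a receptor by which phagocytes bind Gas6, stood at 33.3 (23.6 to 45.8), 25.4 and 5.92, and its ratio over Ccr2-positive cells ran from -0.31 to 0.87 over the alternative settings, through both directions.

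Slc40a1, the iron exporter ferroportin, stood at 28.1 (19.2 to 39.6) CPM in double-negative, 0.344 in Ccr2-positive and 59 in Lyve1-positive cells. Vegfa, a growth factor of blood vessels, stood at 7.90 (3.61 to 15), 26.5 and 0.477. Chil3, a secreted lectin of monocytes and activated macrophages, stood at 44.7 (33.3 to 58.8), 89.7 and 1.97, and 27.5% of its double-negative UMIs came from 1 cell. Of glycolysis genes, 0 of 15 were called against the other macrophages. The genes named in these paragraphs were chosen after their values were seen.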
